A study of Mus musculus with 27 samples.

Results

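Limb mesenchyme grown from mouse embryonic stem (ES) cells was compared with the branchial arch (BA) of the embryo, using 9 of the 27 RNA-seq libraries of the series. These were 3 libraries of forelimb-type (ES–FLB) and 3 of hindlimb-type (ES–HLB) mesenchyme, whose mean is written ES–LB here, and 3 libraries of BA, all chosen by their labels and not by any measured value. The ES cells were of the line EB5 Hand2::GFP +/-, in which 1 allele of Hand2 carries a membrane GFP reporter, and the cultures were taken on day 9. Both types received BMP4 and matrigel from day 1 to day 5. The forelimb type then received retinoic acid (RA) on days 5 to 6 and the hindlimb type an RA antagonist on days 6 to 6.5, and both were later given hydrocortisone, the BMP inhibitor LDN193189 and Wnt3. On day 9 the organoids were trypsinised and the Hand2::GFP-positive mesenchyme was sorted by FACS, from 96 aggregates of each type according to the methods of the study. BA came from Slc:ICR embryos labelled E10.5, taken from 3 embryos by the same source, and was used whole, with its epithelium, vessels, blood and nerves. Levels in embryonic fore- and hindlimb buds are set beside some results. These 4 groups of 3 libraries were buds of Slc:ICR embryos, labelled E10.0 (early) and E10.5, and the text of the study gives the early forelimb and early hindlimb buds ages that differ from each other and from that label. ES–LB and BA differed in tissue, strain, culture, sorting and sex at once, so these cannot be told apart in any difference given here. Nothing in the labels says whether replicates came from separate cultures or embryos, so p-values measure only the spread between these libraries. That spread may be technical in ES–LB, while the BA libraries differed in sex-linked RNA, as given below.

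Levels are given in CPM, the reads of a gene scaled to a common total of reads on genes, after a further scaling of the 9 libraries to each other. From the spacing of the low values, BA libraries held 8077288 to 8541931 reads on genes, ES–FLB libraries 7212053 to 7723214 and ES–HLB libraries 6569891 to 7879904. A value of 3 reads per library, taken as the floor of detection, was on average 0.366 CPM in BA, against 0.396 in ES–FLB and 0.409 in ES–HLB, which covers counting error only. Each difference comes from a limma fit of log2(CPM + 0.5), and a gene was called higher or lower where the adjusted p was below 0.05 and the change 2-fold or more. Because of the added 0.5, changes of weakly expressed genes come out too small. The means given below are over 3 libraries per group with their SD (n = 3). Each list of genes is described by its counts and by its members with the largest and the smallest change, and other members were named after their values were seen.

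The 3 BA libraries differed among themselves in ways that touch some results. Xist, the RNA that coats the inactive X chromosome, had 596, 909 and 233 CPM in BA replicates 1, 2 and 3, and the Y-linked gene Ddx3y had 24.6, 13.6 and 40.0 CPM. All 3 BA libraries thus held RNA with Xist and RNA from a Y chromosome, in different proportions, so that they were not repeats of 1 RNA sample. The neuronal genes Tubb3 (112, 26.2 and 57.5 CPM) and Elavl3 (15.1, 2.46 and 8.61 CPM) and the glial gene Sox10 (18.9, 3.69 and 8.61 CPM) were highest in replicate 1 and lowest in replicate 2. The anterior Hox genes Hoxb3 (2.96, 10.1 and 12.8 CPM) and Hoxb4 (0.71, 1.11 and 4.37 CPM) were lowest in replicate 1 and highest in replicate 3. The standard errors of results on these genes are wide for this reason.

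Branchial arches are bulges of the embryonic throat from which the jaws, the face and the neck are built. Their mesenchyme comes largely from the cranial neural crest, which migrates in from the brain region, around a core of mesoderm and between outer ectoderm and inner endoderm. Endothelin signalling through Ednra switches on Dlx5 and Dlx6 in the lower part of an arch, which together with Hand2 set lower jaw identity, and the mesenchyme of the most anterior arch carries no Hox genes. Limb mesenchyme comes from the lateral plate mesoderm of the trunk. Its level along the body is marked by Hox genes, the fore- or hindlimb identity by Tbx5 or by Tbx4 and Pitx1, and outgrowth is driven by Fgf10, Shh and Fgf8. Hand2 is used in both places, in the lower arch and in the posterior limb bud.

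The 3 markers of the comparison had the order that the labels call for. Barx1, a homeobox gene of arch mesenchyme that is later needed for teeth and stomach (chr13:48663036-48666507, mm10), had 185, 161 and 175 CPM in the BA libraries, 4.12, 5.25 and 3.48 CPM in ES–FLB and 3.22, 2.68 and 2.52 in ES–HLB. Each ES–LB library lay far below each BA library (log2 fold change −5.46, standard error 0.116, adjusted p = 4.57e-23, limma). Dlx6, a homeobox gene of the lower arch (chr6:6863334-6867970), had 38.6, 46 and 47.9 CPM in BA, 0.515, 1.24 and 0.903 CPM for ES–FLB and 1.48, 1.04 and 2.27 CPM for ES–HLB (log2 fold change −4.74, standard error 0.192, adjusted p = 3.95e-17, limma). Hoxa10, a homeobox gene of the posterior trunk and the limb (chr6:52231197-52240854), was listed at 0 in all 3 BA libraries. It had 26.1, 21.8 and 24.6 CPM in ES–FLB and 102, 98.8 and 102 in ES–HLB, at least 171-fold more than the BA floor of 3 reads per library.

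The start regions of Barx1 and Hoxa10 are shown because these genes mark the 2 sides of the comparison. Those of Fos, Dusp1 and Btg2 are shown because many immediate early genes were higher in ES–LB, although Dusp1 itself was not called. All 3 hold the motif TGACGT, which was found in 6 of 19 immediate early genes, so they do not stand for the whole list. Each runs from 250 bases before to 50 bases after the listed start of the gene (RefSeq, GRCm38.p6), 5′ to 3′ on the strand of the gene. Capitals mark TAAT, the core letters that homeodomain proteins such as the Hox and Dlx factors prefer, in the Barx1 and Hoxa10 sequences, and TGACGT, the core of the cAMP response element, in the other 3, each searched on both strands. Barx1 lies at chr13:48662786-48663085 (plus strand), Hoxa10 at chr6:52240805-52241104 (minus strand, the first listed of 2 starts), Fos at chr12:85473640-85473939 (plus strand), Dusp1 at chr17:26508423-26508722 (minus strand) and Btg2 at chr1:134079106-134079405 (minus strand).
Barx1: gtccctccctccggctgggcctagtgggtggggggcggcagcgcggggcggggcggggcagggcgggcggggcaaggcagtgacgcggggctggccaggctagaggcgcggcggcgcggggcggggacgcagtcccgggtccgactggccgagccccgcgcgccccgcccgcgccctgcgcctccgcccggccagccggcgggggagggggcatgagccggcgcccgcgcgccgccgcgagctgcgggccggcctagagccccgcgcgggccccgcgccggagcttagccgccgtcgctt
Hoxa10: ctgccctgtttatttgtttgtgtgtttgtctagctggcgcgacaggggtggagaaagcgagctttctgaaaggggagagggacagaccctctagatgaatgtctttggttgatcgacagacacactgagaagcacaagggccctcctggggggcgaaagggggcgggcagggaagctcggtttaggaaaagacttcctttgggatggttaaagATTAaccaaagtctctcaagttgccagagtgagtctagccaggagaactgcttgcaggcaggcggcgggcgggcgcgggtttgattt
Fos: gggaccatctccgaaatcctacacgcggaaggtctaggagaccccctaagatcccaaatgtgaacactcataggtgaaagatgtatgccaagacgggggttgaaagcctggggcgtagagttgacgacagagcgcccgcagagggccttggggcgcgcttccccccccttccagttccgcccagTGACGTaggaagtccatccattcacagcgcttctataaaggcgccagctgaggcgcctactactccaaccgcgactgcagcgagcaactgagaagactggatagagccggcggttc
Dusp1: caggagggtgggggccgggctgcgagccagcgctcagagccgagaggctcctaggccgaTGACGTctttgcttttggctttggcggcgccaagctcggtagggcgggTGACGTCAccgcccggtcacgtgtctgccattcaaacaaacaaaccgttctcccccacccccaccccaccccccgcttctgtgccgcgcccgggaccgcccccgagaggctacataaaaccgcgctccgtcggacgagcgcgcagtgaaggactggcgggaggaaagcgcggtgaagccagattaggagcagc
Btg2: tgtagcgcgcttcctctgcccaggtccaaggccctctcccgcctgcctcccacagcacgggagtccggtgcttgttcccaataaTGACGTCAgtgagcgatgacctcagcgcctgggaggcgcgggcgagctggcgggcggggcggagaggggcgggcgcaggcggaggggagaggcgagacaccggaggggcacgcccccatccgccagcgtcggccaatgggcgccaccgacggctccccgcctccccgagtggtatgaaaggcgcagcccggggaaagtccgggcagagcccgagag
The Barx1 sequence held no TAAT and was 84.7% G and C, against a median of 52.7% over the 27025 genes with such a sequence. The Hoxa10 sequence was 54.3% G and C and held 1 match, which reads ATTA on the strand of the gene. TAAT was present in 17 of 22 Hox genes (77.3%) and 14 of 21 arch patterning genes (66.7%) with a sequence, against 61.4% of all genes. TGACGT was present in 6 of 19 immediate early genes (31.6%) against 8.37% of all genes. Fos had 1 match, Dusp1 3 and Btg2 2, where the palindrome TGACGTCA counts as 2 overlapping matches. A match is a run of letters and not a measured binding site.

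Of 13624 genes tested, 1423 (10.4%) were called higher and 859 (6.31%) lower in ES–LB than in BA. At an adjusted p below 0.05 without a fold limit it was 9783 genes (71.8%), so that only the sizes of the changes separate the groups of genes described here. The median log2 fold change of all genes tested was 0.01. Each type of ES–LB on its own had similar counts against BA, with 1466 genes (10.8%) higher and 938 (6.88%) lower in ES–FLB and 1384 (10.2%) higher and 816 (5.99%) lower in ES–HLB. Between ES–HLB and ES–FLB, 3012 genes (22.1%) differed at an adjusted p below 0.05, of which 1485 (10.9% of all) were higher in ES–HLB and 1527 (11.2%) in ES–FLB. The lists that lost most were those of erythroid cells, endothelium, macrophages and arch patterning, and the lists that gained most were those of Hox genes, pluripotent cells, immediate early genes and collagens. Some genes passed the filter on low values only through the group in which they were high, and so had to differ. Of the tested genes, 23 of 34 Hox genes and 12 of 16 genes of pluripotent cells reached 1 CPM in no BA library, and 7 of 10 macrophage genes reached it in BA only. Of the erythroid genes 8 of 14, and of the pharyngeal mesoderm genes 4 of 15, reached it in fewer than 3 ES–LB libraries and passed only with BA. Counts over the tested genes of these lists are descriptions for that reason. The counts of every list below are to be read against the 10.4% of all genes called higher and the 6.31% called lower.

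**Figure D1:**
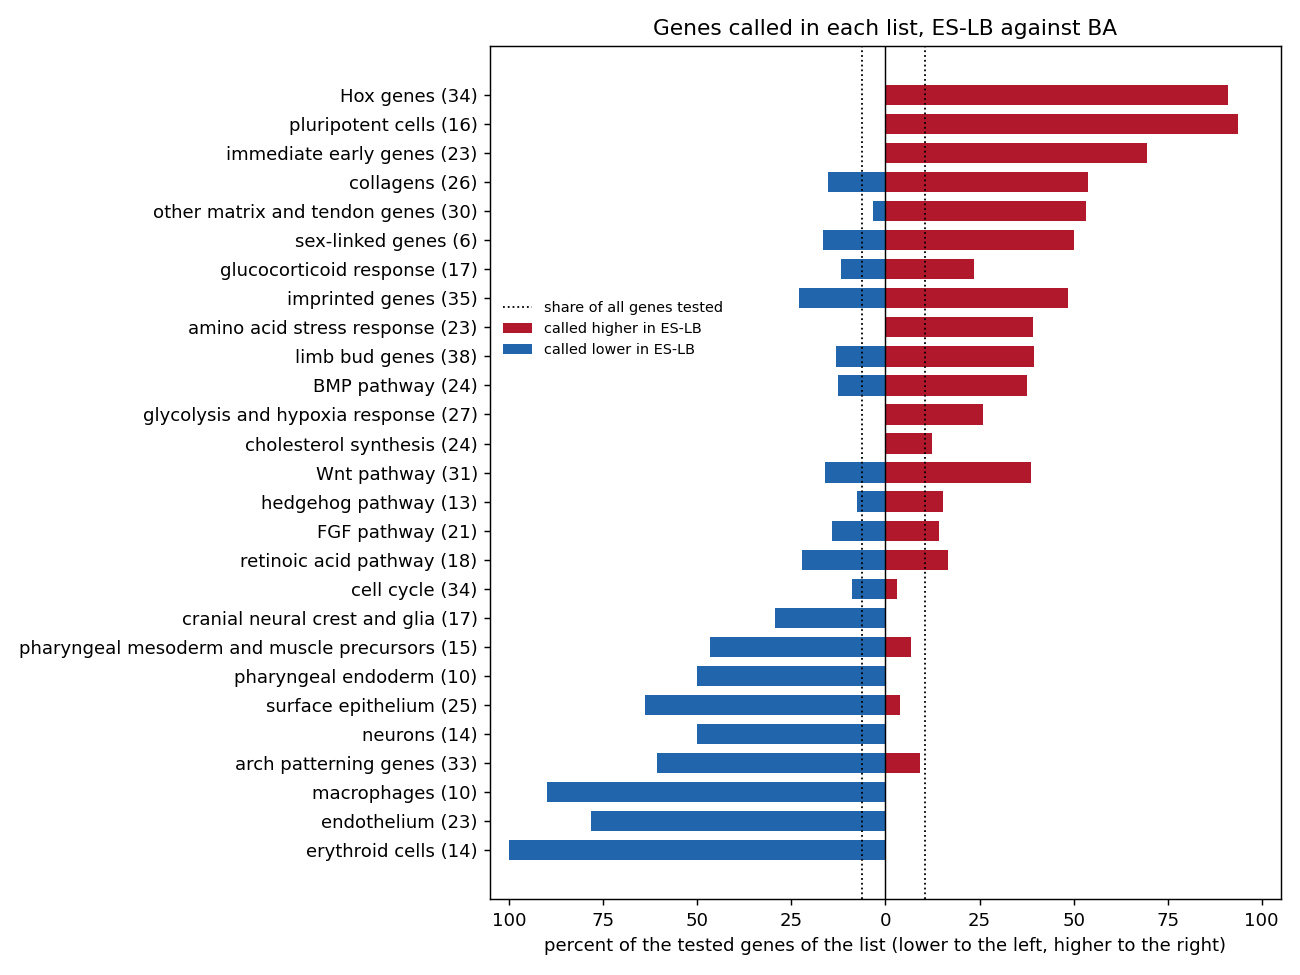
Percent of the tested genes of each list that were called higher (red, to the right) or lower (blue, to the left) in ES–LB than in BA, with the number of tested genes in parentheses and lists ordered by their median log2 fold change. The dotted lines mark the shares over all genes tested, 10.4% higher and 6.31% lower. All 14 tested erythroid genes lie to the left and 31 of 34 tested Hox genes to the right. In both lists many genes passed the filter on low values only through the group in which they were high.

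Genes that pattern the arches were lower in ES–LB as a group, led by the Dlx genes, Barx1 and Lhx8, while Ednra and Otx2 were among those that were higher. Of 35 genes listed, 34 were in the table and 33 were tested, of which 20 were called lower and 3 higher, with a median log2 fold change of −1.50. Edn1, the ligand of Ednra, was too low to be tested, with means of 1.31 CPM in the BA libraries, 0.135 CPM in those of ES–FLB and 0.501 CPM in those of ES–HLB. Foxf1 was not analysed here.

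All 6 Dlx genes were called lower in ES–LB. Dlx3, which acts in the most distal arch and in surface ectoderm, had 68.7, 82.3 and 80.6 CPM in BA, against 0.515, 0.829 and 1.16 in ES–FLB and 1.34, 1.34 and 0.63 in ES–HLB, the largest change of the list (log2 fold change −5.76, standard error 0.183, adjusted p = 2.29e-19, limma). Dlx5, the partner of Dlx6 on chromosome 6, had 75.2, 83.2 and 87.9 CPM in BA and 4.49 ± 0.493 and 3.61 ± 0.519 CPM in ES–FLB and ES–HLB (log2 fold change −4.19, standard error 0.116, adjusted p = 8.93e-21, limma). Dlx1 and Dlx2, which are expressed along the whole arch, had 86 ± 5.41 and 92 ± 1.24 CPM in BA. They were lower by smaller amounts, with log2 fold changes of −3.35 and −3.08 (adjusted p = 1.13e-18 and 4.66e-20, limma). Dlx4 fell from 5.33 ± 0.68 CPM to 0.221 and 0.084 CPM, which is under the floor of 3 reads. The limb buds also express Dlx genes, in their epithelial ridge. Over the 4 limb bud groups of the series, which were set on the same scale and are given side by side with no test, the means were 9.51 to 32.4 CPM of Dlx3 and 4.57 to 11 CPM of Dlx5, while for Barx1 they were 0.313 to 1.53 CPM. In 1 E10.5 hindlimb library a run of 8493 genes was set to missing because nearly all of it was listed at 0, so that the E10.5 hindlimb means of Dlx5, Asb4 and AI506816 rest on 2 libraries.

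Long noncoding RNAs beside these genes were low in ES–LB too. Dlx6as1, transcribed next to Dlx6, had 54.1, 62.5 and 61.4 CPM in BA, 0.773, 0.276 and 0.387 CPM for ES–FLB and 1.07, 0.596 and 1.26 CPM for ES–HLB (log2 fold change −5.66, standard error 0.189, adjusted p = 4.75e-19, limma). Dlx1as, on the other strand of Dlx1, had 79.5 ± 8.34 CPM in the BA libraries, 0.749 ± 0.457 CPM in those of ES–FLB and 3.58 ± 0.521 CPM in those of ES–HLB. It also differed between the ES–LB types, with ES–HLB higher by 1.77 on the log2 scale (adjusted p = 2.22e-06, limma). A730090H04Rik, which RefSeq names as the antisense RNA of Dlx4, had 17.3, 19.1 and 22.9 CPM in BA and was listed at 0 in 5 of the 6 ES–LB libraries. AI606473, next to Lhx8, had 49.5 ± 11.6 CPM in BA against 0.66 ± 0.388 and 1.78 ± 0.359 CPM. The strand setting of the counting is not stated, so reads of Dlx1 and Dlx1as, or of Dlx6 and Dlx6as1 where they overlap, cannot be told apart.

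Among the other factors of jaw mesenchyme, Lhx8 and Lhx6, which mark the oral side of the arch, moved by unequal amounts. Lhx8 had 73.8, 59.5 and 54 CPM in BA, against 1.55, 2.35 and 1.55 in ES–FLB and 4.7, 3.28 and 3.65 in ES–HLB (log2 fold change −4.31, standard error 0.148, adjusted p = 8.2e-19, limma). Lhx6 had 54.9 ± 14.6 CPM in BA and 21.6 ± 1.04 and 12.5 ± 2.26 CPM in the ES–LB types, a log2 fold change of −1.69 (adjusted p = 1.03e-07, limma). Gbx2 (−3.68), Pou3f3 (−2.98), Nkx3-2 (−2.22), Hand1 (−1.97), Gsc (−1.88), Msx1 (−1.50), Nr2f1 (−1.38), Eya1 (−1.17) and Foxf2 (−1.14) were called lower as well, with the log2 fold change in parentheses.

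Several of these genes differed between the types of ES–LB. Gsc, a homeobox gene of the lower jaw, had 42.8 ± 8.82 CPM in BA, 24 ± 1.61 CPM for ES–FLB and 5.06 ± 1.11 CPM for ES–HLB, so that ES–HLB lay below ES–FLB (log2 difference −2.16, adjusted p = 5.93e-10, limma). Foxf2, a gene of head mesenchyme, showed the same order, with 37.3 CPM in ES–FLB and 5.27 in ES–HLB against 31.9 CPM in BA. Its ES–FLB libraries (31.3, 36.2 and 44.4 CPM) overlapped those of BA (27.9, 30.9 and 36.9 CPM). Hand1 and Pitx1 had the opposite order, with log2 differences of 2.19 and 3.17 for ES–HLB minus ES–FLB (adjusted p = 4.62e-12 and 1.21e-10, limma). Pitx1, a gene of both the lower jaw and the hindlimb, had 117, 114 and 149 CPM in the BA libraries, 9.53, 6.5 and 7.48 CPM in those of ES–FLB and 77.7, 68.5 and 74.7 CPM in those of ES–HLB. Its log2 fold change against BA was −3.94 in ES–FLB and −0.77 in ES–HLB, and the E10.5 hindlimb buds had 249 CPM against 0.895 CPM in the E10.5 forelimb buds.

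Ednra, the endothelin receptor of arch mesenchyme, was higher in ES–LB, although the Dlx genes downstream of it were lower. It had 77, 76.4 and 78.9 CPM in BA, against 290, 301 and 301 in ES–FLB and 162, 169 and 175 in ES–HLB (log2 fold change 1.53, standard error 0.042, adjusted p = 8.93e-21, limma), with no overlap between the groups. Ece1, which activates endothelin, had 96.5 ± 3.36 CPM in BA and 119 ± 3.6 and 131 ± 7.26 CPM in ES–LB, a difference of less than 2-fold (0.37, adjusted p = 1.58e-07, limma). Otx2, a gene of the anterior head, was near the floor in BA (0.323 CPM) and in ES–FLB (1.05 CPM) and reached 13.7, 14.8 and 15.5 CPM in ES–HLB (log2 difference between the types 3.32, adjusted p = 3.62e-11, limma).

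Hand2, the gene behind the sorting reporter and a gene of the lower arch in BA, differed by less than 2-fold between ES–LB and BA and was not called. The ES–LB cells had been chosen by the reporter of this same gene, so their Hand2 level is not independent of the sort. How the allele with the reporter affects the reads of Hand2 was not tested. It had 134, 172 and 195 CPM in the BA libraries, 172, 175 and 150 CPM in those of ES–FLB and 258, 233 and 253 CPM in those of ES–HLB. The ES–FLB values lay within the BA range and the ES–HLB values above it. The log2 fold change of 0.29 had a 95% interval of 0.01 to 0.58 (adjusted p = 0.0623, limma). Its side of the 0.05 threshold depended on the processing, with an adjusted p below 0.05 in 6 of 18 alternatives, and the lowest, 0.00704, came without BA replicate 3 (log2 fold change 0.41). Hand2os1 overlaps it on the other strand by 3251 bases. Alx1 and Alx4, genes of the frontonasal and limb mesenchyme, had log2 fold changes of −0.64 and 0.29, and neither was called.

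**Figure D2:**
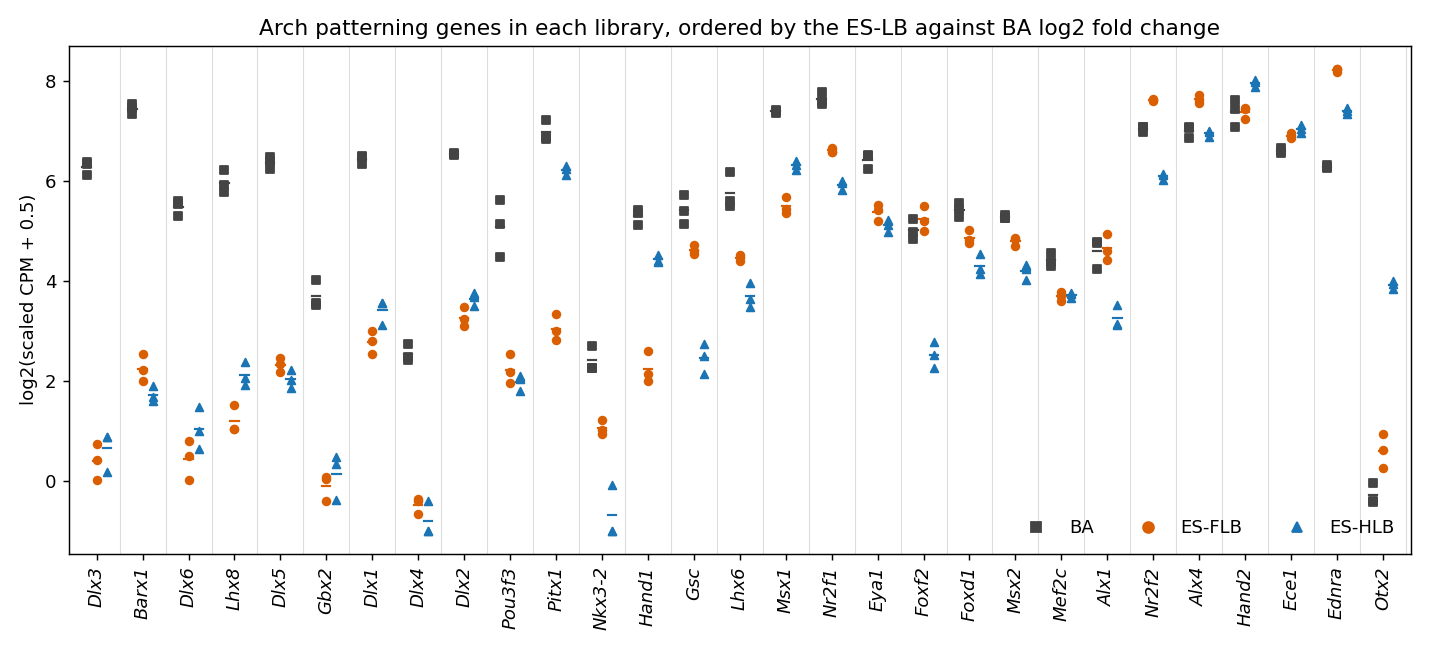
Level of 29 arch patterning genes in each of the 9 libraries, as log2(CPM + 0.5), with short lines for group means and genes ordered from the lowest to the highest log2 fold change. Squares are BA, circles ES–FLB and triangles ES–HLB. Dlx3 and Barx1, at the left, lie 5.76 and 5.46 lower in ES–LB, and for Hand2 the ES–FLB points lie among those of BA and the ES–HLB points above both.

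Hox genes were higher in ES–LB in nearly every case. All 39 Hox genes were in the table, 34 were tested, 31 were called higher in ES–LB and none lower, with a median log2 fold change of 3.31. The summed level of the 39 genes was 31.3 to 81.9 CPM in BA, against 681 to 706 in ES–FLB and 453 to 466 in ES–HLB. Of the 16 genes of paralogous groups 9 to 13, which pattern the posterior trunk and the limb, 13 were listed at 0 in all 3 BA libraries, and all 13 that were tested were called higher in ES–LB. Of the 23 genes of groups 1 to 8, 5 were at 0 in all BA libraries, and 18 of the 21 tested were called higher. For genes at 0 in BA the fitted fold change depends on the 0.5 that was added. With these genes set to their bound from the floor, the median was 3.41.

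The posterior genes were higher in ES–HLB and the anterior genes in ES–FLB. Within groups 9 to 13, 10 of 13 genes were higher in ES–HLB and none in ES–FLB at an adjusted p below 0.05, and within groups 1 to 8, 16 of 21 were higher in ES–FLB and none in ES–HLB (limma). Hoxa11, needed for the forearm and lower leg, had 0, 0 and 0.125 CPM in BA, where the last value is 1 read, 9.53, 11.1 and 8.38 CPM in ES–FLB and 56.9, 57.4 and 52.2 in ES–HLB. Hoxa9 was listed at 0 in BA, with 14, 13.4 and 11.7 CPM in ES–FLB and 36.9, 40.4 and 29.6 in ES–HLB. Hoxd13, the gene of the digits, was also at 0 in BA and had 1.55, 2.21 and 1.93 and 11.3, 15.3 and 12 CPM in the ES–LB types, while the E10.5 limb buds had 166 and 76.8 CPM. Hoxa5, a gene of the neck and forelimb level, had 0, 0.123 and 0.998 CPM in BA, against 64.1, 62.5 and 62.9 in ES–FLB and 6.04, 7 and 7.06 in ES–HLB, and was higher in ES–FLB (ES–HLB minus ES–FLB −3.15 on the log2 scale, adjusted p = 7.81e-05, limma).

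Hoxc5 and Hoxc6 were among the genes with the largest rise. Hoxc5 had 0, 0 and 1.12 CPM in BA, 73.5, 59.9 and 71.2 CPM for ES–FLB and 8.05, 9.39 and 8.19 CPM for ES–HLB (log2 fold change 5.07, standard error 0.386, adjusted p = 1.18e-05, limma), and its value in BA came from replicate 3 alone. Hoxc6 had 0, 0 and 0.125 CPM in the BA libraries, 34.1, 35.3 and 38.3 CPM in those of ES–FLB and 6.44, 8.79 and 9.07 CPM in those of ES–HLB (log2 fold change 5.03, standard error 0.158, adjusted p = 1.39e-19, limma). A longer span of Hoxc5 overlaps Hoxc6, Hoxc8, Hoxc9 and Hoxc10 on the same strand in the GENCODE annotation, as Hoxa3 overlaps Hoxa4, Hoxa5 and Hoxa6, and Hoxd3 overlaps Hoxd4. The counting could have shared reads within each of these sets.

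BA was not free of Hox RNA. Hoxa2, which gives the arch behind the jaw its identity, had 18.6, 32.3 and 29.1 CPM in BA, against 49.3, 48.7 and 44.5 in ES–FLB and 24.6, 23.1 and 23.8 in ES–HLB, the smallest change of the list (0.37, 95% interval 0.06 to 0.68). The ES–HLB libraries lay within the BA range. Hoxb2 and Hoxb3 had 4.85, 8.61 and 11.3 and 2.96, 10.1 and 12.8 CPM in BA, against 55.9 ± 3.19 and 129 ± 0.681 CPM in ES–FLB and 22.6 ± 0.406 and 47.6 ± 2.3 in ES–HLB. Hoxd3 (0.70, 95% interval −0.34 to 1.75) was not called, and without BA replicate 3 it was called higher (1.25).

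**Figure D3:**
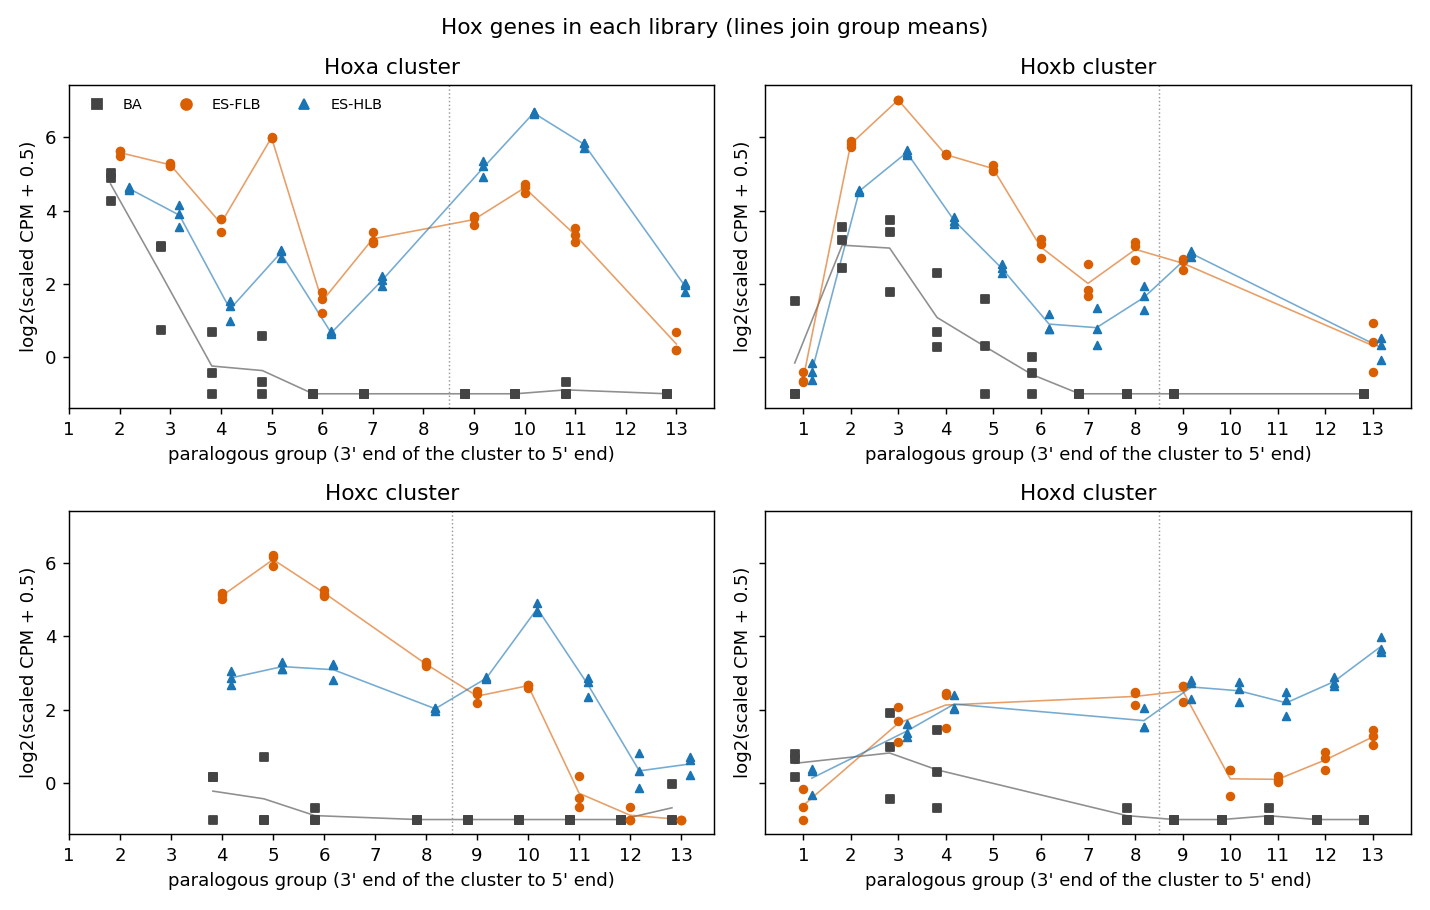
Level of 38 Hox genes in each of the 9 libraries, as log2(CPM + 0.5), against paralogous group, with 1 panel per cluster, lines joining group means, and a dotted line between groups 8 and 9. Squares are BA, circles ES–FLB and triangles ES–HLB. A value of 0 CPM lies at −1, near which BA sits from group 6 on. The mean of ES–FLB lies above that of ES–HLB in most genes up to group 8, and that of ES–HLB lies above at Hoxa9 to Hoxa13, Hoxc10, Hoxc11 and Hoxd10 to Hoxd13.

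Limb bud genes were mixed. Of 38 genes, all tested, 15 were called higher and 5 lower in ES–LB, against 10.4% and 6.31% of all genes, with a median log2 fold change of 0.48. The 5 lower genes were Emx2 (−3.52), Pitx1, Asb4, Shh and Etv4 (−1.18), and Tbx5 had the largest rise. Tbx5, which starts the forelimb, had 0, 0 and 0.873 CPM in BA, 76.2, 71.3 and 77.2 CPM for ES–FLB and 4.29, 2.38 and 3.28 CPM for ES–HLB, with log2 fold changes of 6.75 in ES–FLB and 2.42 in ES–HLB, which differed (adjusted p = 1.42e-05, limma). Tbx4, its hindlimb counterpart, had 2.96, 4.06 and 3.74 CPM in the BA libraries, 4.38, 3.87 and 1.29 CPM in those of ES–FLB and 64.8, 61.4 and 51.5 CPM in those of ES–HLB. The BA and ES–FLB values of Tbx4 overlapped, and ES–HLB was higher than BA (3.87, adjusted p = 1.95e-05, limma) and higher than ES–FLB (4.14, adjusted p = 7.13e-05, limma). Tbx18 had 2.65 ± 1.31 CPM in BA and 32.3 ± 3.6 and 37.6 ± 5.71 CPM in the ES–LB types, and Tbx15 had 10.4 ± 1.43, 8.98 ± 1.57 and 118 ± 4.95 CPM in BA, ES–FLB and ES–HLB.

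Among the 18 limb bud genes that were not called were Prrx1, Fgf10, Isl1 and Meis2. Prrx1, a homeobox gene of limb and face mesenchyme, had 633, 637 and 518 CPM in BA, against 478, 492 and 494 in ES–FLB and 676, 690 and 665 in ES–HLB. It changed least in the list, with a 95% interval of −0.16 to 0.07 for the log2 fold change. Fgf10, the mesenchymal signal for outgrowth, had 16.7 ± 1.23 CPM in BA and 29.8 ± 3.25 and 18.3 ± 1.38 CPM in the ES–LB types (0.47, adjusted p = 5.06e-05, limma), which is less than 2-fold. Isl1, an early hindlimb gene that is also expressed in the arch, had 22 ± 4.3, 24.8 ± 3.41 and 32.3 ± 0.989 CPM. Meis1, a gene of the proximal limb, was higher (1.26), as were Tbx2 (1.06), Irx3 (1.69), Irx5 (1.82), Sall1 (2.30) and Shox2 (1.39), while Meis2 changed by 0.43.

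Some genes of the outgrowing bud were far lower in ES–LB than in the E10.5 limb buds, whatever their direction against BA. Levels in the early buds are not given for these genes, so the statement covers E10.5 only. Lhx9, a gene of the distal mesenchyme, had 0.165 CPM in BA and 5.05 ± 1.1 and 5.78 ± 1.35 CPM in ES–LB and was called higher (3.15, adjusted p = 7.77e-13, limma), while the E10.5 forelimb and hindlimb buds had 162 and 195 CPM. Lhx2 had 7.94, 7.03 and 14.8 CPM in BA, ES–FLB and ES–HLB and was not called, beside 80.5 and 145 CPM in these buds. Asb4 had 137, 159 and 154 CPM in BA and 31.5 ± 2.53 and 27.5 ± 2.02 CPM in ES–LB (log2 fold change −2.33, standard error 0.068, adjusted p = 3.27e-20, limma), beside 689 and 730 CPM. Shh, the signal of the posterior limb and of arch epithelium, had 9.46, 9.84 and 13 CPM in BA, 2.06, 2.35 and 5.67 CPM for ES–FLB and 1.48, 1.04 and 1.64 CPM for ES–HLB (−2.11, adjusted p = 4.26e-08, limma). For Shh no level in the buds is given here. Lmx1b, which gives the limb its dorsal side, had 2.06, 1.17 and 0.761 CPM in BA, ES–FLB and ES–HLB and 25.4 and 32.5 CPM in the E10.5 buds, and was called lower than BA without ES–FLB replicate 3 (−1.06).

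BA was not sorted, and markers of the other cell types of an embryonic tissue were high in it. In bulk samples fewer cells of a type and less RNA per cell cannot be told apart. Erythroid genes had the lowest median of all lists, with a summed level over 16 genes of 3168 to 3864 CPM in BA, against 6.96 to 10.1 in ES–FLB and 101 to 190 in ES–HLB. All 14 tested were called lower (median log2 fold change −4.00), but 8 of them passed the filter on low values only with the help of BA, so this count is a description. Hbb-y, an embryonic beta globin, had 1713, 1537 and 1412 CPM in the BA libraries, 3.22, 3.46 and 2.84 CPM in those of ES–FLB and 41.1, 27.4 and 23.4 CPM in those of ES–HLB (log2 fold change −7.20, standard error 0.176, adjusted p = 1.49e-08, limma). The globins Hba-x, Hbb-bh1 and Hba-a1 followed, with 1.73 ± 0.839, 1.46 ± 0.486 and 0.305 ± 0.218 CPM in ES–FLB and 39.3 ± 16.3, 50.7 ± 13.6 and 7.58 ± 2.42 in ES–HLB, against 821 ± 69.6, 797 ± 118 and 171 ± 18.6 CPM in BA. Globin paralogs share reads, so the split between them is uncertain. Hemgn, a gene of red cell precursors, was listed at 0 in all ES–FLB libraries, and Nfe2 changed least (−1.48, or −0.80 and not called with a pseudocount of 2).

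Endothelial genes had a sum of 588 to 685 CPM in BA over 25 genes, against 105 to 112 in ES–FLB and 158 to 162 in ES–HLB. Of 23 tested, 18 were called lower and none higher (median −2.61). Plvap, a gene of fenestrated vessels, had 41.4, 47.2 and 49.5 CPM in BA, against 2.58, 1.24 and 1.03 in ES–FLB and 1.74, 1.49 and 2.77 in ES–HLB, and the cadherin Cdh5 had 90.7 ± 11.5, 7.19 ± 2.11 and 9.82 ± 1.05 CPM. Sox17 changed least and was not called (0.29, 95% interval −0.05 to 0.64). Macrophage genes summed to 35.8 to 41.3 CPM in BA, against 1.16 to 2.35 in ES–FLB and 4.83 to 5.42 in ES–HLB, with 9 of 10 tested called lower (median −2.54), from Mrc1 (−3.09) to Cd68 (−0.65), which was not called. C1qc and C1qa, subunits of complement C1q, were listed at 0 in all ES–FLB libraries.

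Surface epithelium was also lower but not absent from ES–LB. Its 25 genes summed to 636 to 679 CPM in BA, against 203 to 279 in ES–FLB and 380 to 403 in ES–HLB, and 16 were called lower and 1 higher (median −1.26). Trp63, the master gene of stratified epithelium, had 59, 58.4 and 53.5 CPM in BA, 2.7, 2.76 and 6.06 CPM for ES–FLB and 2.55, 5.07 and 5.42 CPM for ES–HLB (log2 fold change −3.72, standard error 0.292, adjusted p = 5.34e-06, limma). Epcam had 46.7 ± 4.24, 17.4 ± 3.37 and 15.8 ± 1.93 CPM. The keratins did not move together, since Krt18 was lower (−1.26), Krt5 higher (16.6, 15.2 and 20.6 CPM in the BA libraries, 35, 33.2 and 45 CPM in those of ES–FLB and 65.1, 67.8 and 69.8 CPM in those of ES–HLB, 1.51, adjusted p = 1.48e-11, limma), and Krt14 changed least, with 12.3 ± 2.06, 7.86 ± 1.8 and 19.2 ± 1.41 CPM. Of the pharyngeal endoderm genes, 14 were listed, 13 were in the table and 10 were tested, of which 5 were called lower and none higher (median −0.88). Foxe1, a gene of thyroid and palate, had 4.49, 4.06 and 5.61 CPM in BA and was listed at 0 in 5 of the 6 ES–LB libraries, whereas Sox2 changed least (−0.08).

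Genes of the neural crest and its glia overlapped more between the groups. Of 20 listed, 17 were tested, 5 were called lower and none higher (median −0.54), and the summed level was 569 to 705 CPM in BA, against 521 to 531 in ES–FLB and 613 to 652 in ES–HLB. The 5 were Pax3 (−2.65), Tfap2b (−2.58), Sox10 (−2.42), Erbb3 (−2.34) and Cdh19 (−1.76, or −0.83 and not called with a pseudocount of 2). Sox10, Erbb3 and Cdh19 belong to glial precursors, and Sox10 had 0.515, 0.968 and 1.16 CPM in ES–FLB and 2.01, 1.19 and 1.76 in ES–HLB. Tfap2a, which crest cells share with limb mesenchyme and ectoderm, had 25.7 ± 1.65 CPM in BA and 19.5 ± 1.85 and 29.9 ± 2.21 CPM in ES–LB (95% interval −0.26 to 0.09). Crabp1 and Sox9 were not called, at −0.08 and −0.16.

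Of the pharyngeal mesoderm and muscle genes, 15 of 18 were tested, 7 were called lower and 1 higher (median −0.67). Tbx1, the T-box gene of pharyngeal mesoderm and endoderm, had 8.28, 9.96 and 18.7 CPM in BA, against 1.29, 1.38 and 0.774 in ES–FLB and 0.537, 0.298 and 0.504 in ES–HLB (log2 fold change −3.29, standard error 0.231, adjusted p = 2.13e-12, limma). The muscle regulators Myf5, Myod1 and Myog were at 0.0858, 0.304 and 0.129 CPM in ES–FLB and 0, 0.29 and 0.0497 in ES–HLB, all under the floor, against 3.1 ± 0.813, 4.25 ± 1.83 and 3.64 ± 1.43 CPM in BA. Tcf21, a gene of branchial muscle precursors that also marks the mesenchyme around internal organs, was higher in ES–LB, with 2.01, 4.43 and 5.61 CPM in BA, 20.9, 21 and 18.7 CPM for ES–FLB and 18.6, 17.3 and 18.5 CPM for ES–HLB (log2 fold change 2.21, standard error 0.232, adjusted p = 1.04e-05, limma). Msc, which changed least over the mean of both types (−0.01), had 5.06 ± 1.16 CPM in BA and was higher in ES–FLB (12.9 ± 1.64 CPM) and lower in ES–HLB (1.72 ± 0.216 CPM). Of the neuronal genes, 14 of 17 were tested, 7 were called lower and none higher (median −1.34), from Dcx (−2.53) to Snap25 (−0.13, or −1.05 and called lower without BA replicate 2), and the summed level in BA ranged from 167 to 518 CPM, against 169 to 176 CPM in ES–FLB and 113 to 137 CPM in ES–HLB. The count of neuronal genes called lower rested on the BA library left out, with 5 of 12 without replicate 1, 12 of 14 without replicate 2 and 5 of 12 without replicate 3. What part these cell types had in the other differences from BA was not tested.

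**Figure D4:**
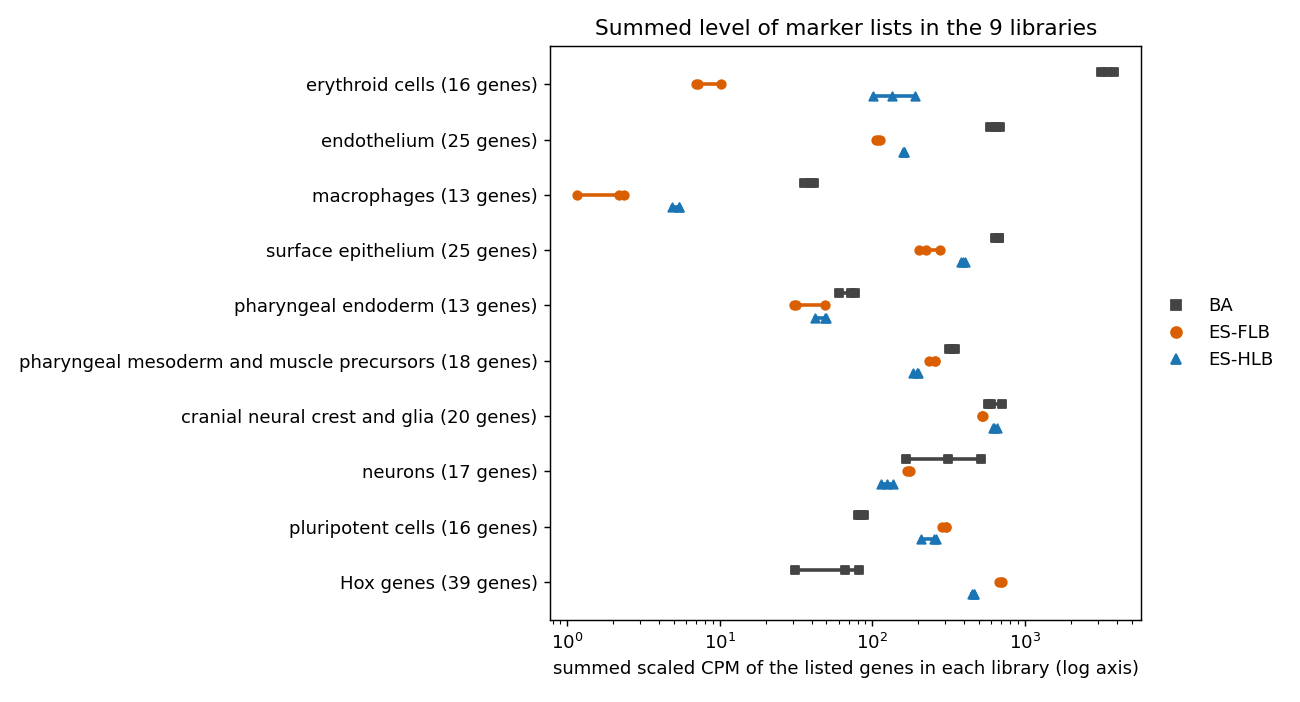
Summed level of each marker list in the 9 libraries, in CPM on a log axis, with the lowest, the median and the highest library of each group joined by a bar. Squares are BA, circles ES–FLB and triangles ES–HLB, and the number of genes summed stands in parentheses. Erythroid genes reach 3864 CPM in BA and 10.1 CPM in ES–FLB, while the crest and glia list lies between 521 and 705 CPM in all groups.

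Genes of pluripotent cells were higher in ES–LB than in BA, most of them at low levels. All 16 were tested and 15 were called higher (median log2 fold change 2.42, or 2.53 with the 7 genes at 0 in BA set to their bound). Pou5f1 was listed at 0 in BA and had 5.54, 2.76 and 4.77 CPM in ES–FLB and 12.9, 20.6 and 20.2 in ES–HLB. Dppa5a, with the largest change (4.44), Zfp42 and Nanog had 5.65 ± 0.843, 4.91 ± 0.569 and 2.67 ± 0.826 CPM in ES–FLB and 19.2 ± 5.04, 20.5 ± 1.99 and 9.56 ± 2.46 in ES–HLB, against 0, 0.0394 and 0.0394 CPM in BA. ES–HLB was higher than ES–FLB in 14 of the 16. The exceptions were Klf4 (−1.33) and Tbx3 (−1.33), which mesenchyme also expresses, and Tbx3 was the member that was not called. The summed level of the list ran the other way between the types, with 80.3 to 88.6 CPM in BA, 286 to 306 CPM in ES–FLB and 208 to 262 CPM in ES–HLB, of which Tbx3 made up 69.8 ± 6.39, 163 ± 6.85 and 64.8 ± 6.61 CPM.

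Extracellular matrix genes were higher in ES–LB, among them the chains of collagens VI, I, III and XIV. Of 27 collagens listed, 26 were tested, 14 were called higher and 4 lower, with a median log2 fold change of 1.16. Col14a1, a collagen of tendon and dermis, had 1.54, 2.34 and 2 CPM in the BA libraries, 88.2, 84.9 and 91 CPM in those of ES–FLB and 80.5, 69.7 and 84.3 CPM in those of ES–HLB (log2 fold change 5.10, standard error 0.093, adjusted p = 2.25e-24, limma). Its means in the 4 limb bud groups, given with no test, were 2.95 to 34.8 CPM. The 3 chains of collagen VI rose together. Col6a1, Col6a2 and Col6a3 had 22 ± 1.4, 30.6 ± 4.14 and 36.1 ± 2.47 CPM in BA, against 199 ± 10.4, 240 ± 18.4 and 283 ± 10.3 in ES–FLB and 409 ± 22.7, 422 ± 13.3 and 400 ± 7.36 in ES–HLB. The fibrillar collagens Col3a1 (2.43), Col1a1 (2.08) and Col1a2 (1.82) were higher as well, and Col3a1 reached 4122 ± 149 and 4290 ± 146 CPM against 783 ± 38 CPM in BA.

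The 4 lower collagens belong to cartilage and to basement membranes. Col2a1 and Col9a1, made by cartilage and its precursors, had 513, 522 and 580 and 218, 258 and 270 CPM in BA, 96.4, 94.4 and 107 and 30.9, 32.4 and 27.6 CPM for ES–FLB and 202, 191 and 217 and 77.7, 86.6 and 80.1 CPM for ES–HLB. On the log2 scale they changed by −1.92 and −2.31 (adjusted p = 1.11e-19 and 4.27e-19, limma), and both genes were lower in ES–FLB than in ES–HLB (adjusted p = 4.55e-12 and 1.58e-12, limma). Col15a1, a basement membrane collagen, changed most in this direction, from 80.9 ± 3.6 CPM to 6.07 ± 0.491 and 5.12 ± 0.906 CPM (−3.75), and Col18a1 had a change of −2.12. Sox9, the regulator of the cartilage collagens, had 72.7, 61.2 and 79.9 CPM in the BA libraries, 52.7, 60.0 and 61.5 CPM in those of ES–FLB and 63.5, 68.7 and 76.7 CPM in those of ES–HLB (95% interval of the log2 fold change −0.33 to 0.01). Col4a1, the main basement membrane collagen, changed least, with 514 ± 19.8, 410 ± 19.2 and 556 ± 11.7 CPM.

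Of 33 other matrix and tendon genes, 30 were tested, 16 were called higher and 1, Fbln5 (−1.57), lower (median 1.05). The proteoglycans Lum and Dcn had 15.6 ± 0.634 and 4.46 ± 1.68 CPM in BA, against 180 ± 15.6 and 65.8 ± 1.12 in ES–FLB and 354 ± 22.7 and 91.2 ± 6.71 in ES–HLB (log2 fold changes 3.98 and 4.03). Tnc, tenascin C, had 18.2, 18.9 and 32.3 CPM in BA, 415, 412 and 430 CPM for ES–FLB and 182, 187 and 194 CPM for ES–HLB (log2 fold change 3.62, standard error 0.182, adjusted p = 2.11e-06, limma). Postn (2.30), Has2 (2.37), Thbs2 (3.06), Vcan (1.53) and Fn1 (1.06) were higher too, where Fn1 fell short of 2-fold without BA replicate 1 (0.98). Over the 4 limb bud groups, given with no test, Lum had means of 3.96 to 27 CPM and Dcn 1.12 to 5.17. Tnc had 4.2 to 125 CPM and Postn 12.5 to 157, and each of these genes was highest in the early forelimb buds. The early bud libraries held 19642244 to 22142301 reads on genes, against 3661845 to 5908845 in those of E10.5. Whether this bears on the order of the bud groups was not tested. The study reports Col6a1, Tnc, Dcn and Egr1 as higher in its ES–LB than in embryonic limb buds. Scx, the transcription factor of tendon, had 16.8 ± 2.32 CPM in BA and 15.9 ± 2.32 and 13.5 ± 0.311 CPM in ES–LB and was not called (95% interval −0.41 to 0.03), and Timp1 changed least (0.06). Fmod, a proteoglycan of tendon and cartilage, had 2.72, 4.06 and 3.99 CPM in the BA libraries, 0.644, 0.415 and 0.516 CPM in those of ES–FLB and 26.4, 21.2 and 25.6 CPM in those of ES–HLB, so that it was called lower in ES–FLB and higher in ES–HLB.

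Immediate early genes, which cells switch on within minutes of a stimulus, were higher in ES–LB. Of 25 listed, 23 were tested, 16 were called higher and none lower, with a median log2 fold change of 1.65. Egr1, which also drives tendon genes, had 19.2 ± 8.77 CPM in BA, against 747, 490 and 742 in ES–FLB and 413, 480 and 525 in ES–HLB (log2 fold change 4.91, standard error 0.317, adjusted p = 8.82e-06, limma). Its means in the 4 limb bud groups, given with no test, were 2.77 to 12.8 CPM. Fos had 7.22, 14.5 and 19.7 CPM in BA, 157, 106 and 174 CPM for ES–FLB and 79.4, 112 and 117 CPM for ES–HLB (log2 fold change 3.19, standard error 0.344, adjusted p = 0.000152, limma). Junb had 5.56, 9.59 and 8.48 CPM in the BA libraries, 170, 124 and 182 CPM in those of ES–FLB and 65.9, 75.5 and 90.5 CPM in those of ES–HLB (log2 fold change 3.75, standard error 0.213, adjusted p = 3.54e-06, limma). In each of these genes BA replicate 1 was the lowest of the BA libraries and every ES–LB library lay above every BA library. Btg2 (1.56) was called higher, whereas Dusp1 (0.51) was not, and Jund changed least (0.22). The ES–LB cells were trypsinised and sorted before lysis and BA was not, so that the effect of this handling and of the tissue cannot be told apart.

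**Figure D5:**
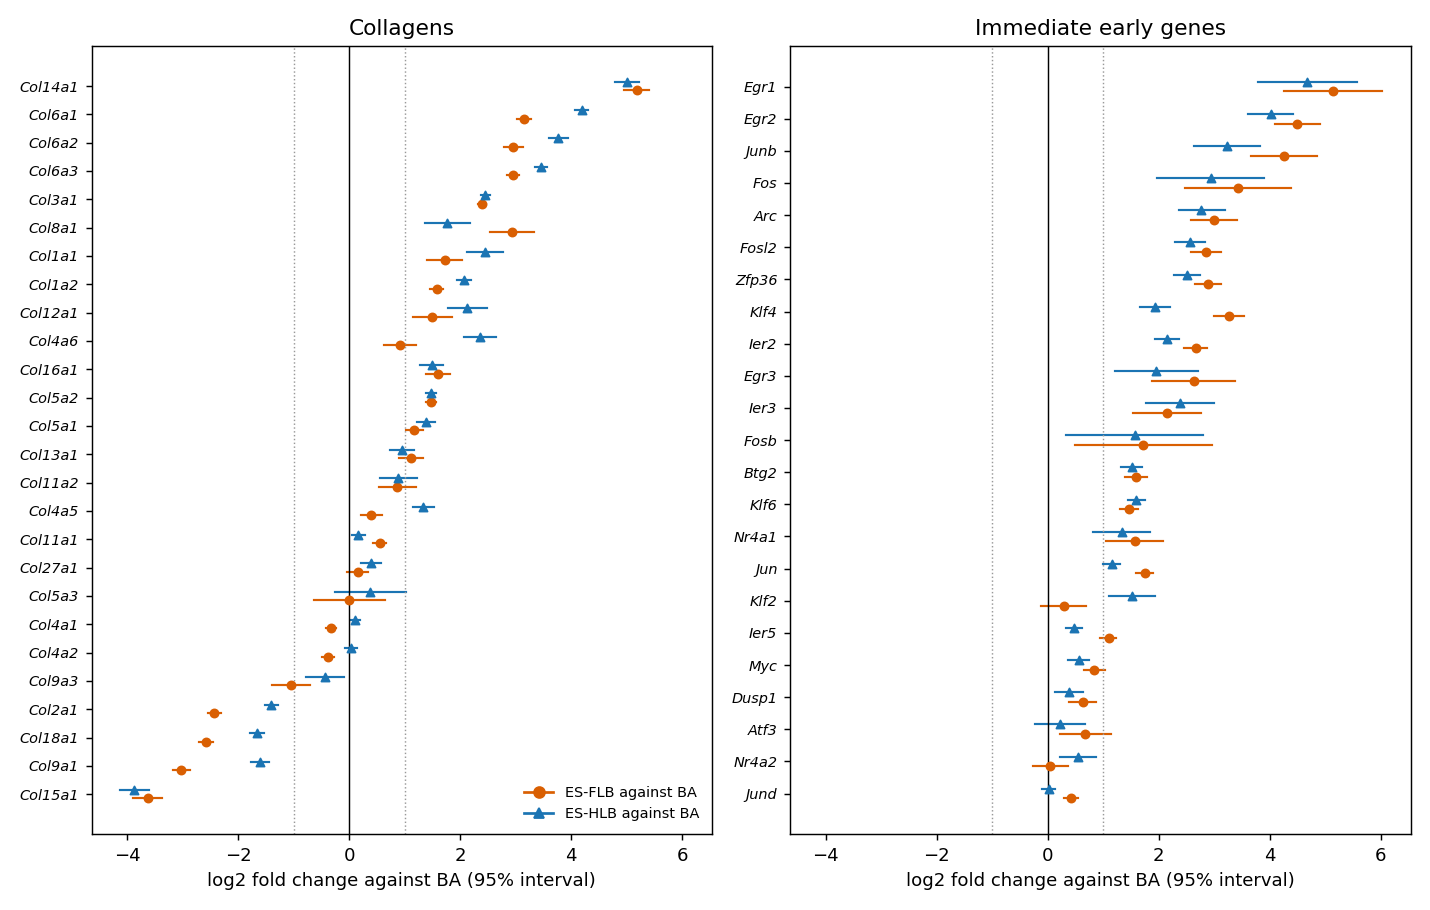
Log2 fold change against BA of the 26 tested collagens (left) and the 23 tested immediate early genes (right), for ES–FLB (circles) and ES–HLB (triangles), with bars for the 95% interval and dotted lines at a 2-fold change. Col14a1 and Egr1 lead the panels, with 5.10 and 4.91 over the mean of both types, and Col15a1 lies lowest, at −3.75.

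Signalling genes were mixed in every pathway examined, and the counts below are to be read against 10.4% of all genes called higher and 6.31% lower. Of 24 BMP genes, all tested, 9 were called higher and 3 lower (median 0.47). Bmp4, the factor added to the culture until day 5, had 25.8, 26.8 and 30.6 CPM in BA, against 209, 206 and 185 in ES–FLB and 96.2, 94 and 98.9 in ES–HLB (log2 fold change 2.31, standard error 0.058, adjusted p = 1.17e-21, limma). The BMP antagonists Grem1 (2.03), Fst (2.02), Nog (1.36) and Chrd (1.30) were called higher, where Nog lost its call with a pseudocount of 2 (0.92). The receptor Bmpr1b (−2.34) and the ligand Gdf5 (−2.03) were called lower, and among the direct targets Id1, Id2 and Id3 changed by 0.68, 0.80 and 0.16 and were not called. The receptor Bmpr1a and the ligand Bmp7 changed least (−0.11 and −0.11).

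Of 32 Wnt genes, 31 were tested, 12 were called higher and 5 lower (median 0.35). The 5 were the ligands Wnt9b (−4.94), Wnt6 (−3.35), Wnt3 (−2.89), Wnt7b (−2.71) and Wnt5b (−1.28), of which epithelia make the first 4. Wnt9b, an ectodermal ligand of the face, had 25.5, 27.2 and 27.4 CPM in BA, 0.258, 0.138 and 0.516 CPM for ES–FLB and 0.671, 0.447 and 0.378 CPM for ES–HLB. The mesenchymal ligands Wnt2 (3.89), Wnt11 (2.97) and Wnt5a (1.05) were higher, as were the feedback targets Nkd1 (1.55), Notum (1.71), Apcdd1 (1.46) and Sp5 (1.71), while Axin2 (0.52) was not called and Wnt2b changed least (0.09).

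Of 23 FGF genes, 21 were tested, 3 were called higher and 3 lower (median 0.14). Fgf8, the ligand of arch ectoderm and of the limb ridge, had 9.46, 13.3 and 8.98 CPM in the BA libraries, 0, 0 and 0.258 CPM in those of ES–FLB and 0.805, 1.49 and 0.882 CPM in those of ES–HLB (log2 fold change −3.54, standard error 0.227, adjusted p = 3.32e-13, limma). Its targets did not move as one, since Etv4 (−1.18) was called lower, Spry4 (1.01) higher (0.84 and not called without BA replicate 3, and 0.99 without ES–FLB replicate 2, ES–HLB replicate 1 or ES–HLB replicate 3), and Dusp6 (0.30) and Etv5 (−0.71) were not called. Spry1 changed least (−0.03). Of 14 hedgehog genes, 13 were tested, 2 were called higher and 1, Shh, lower (median 0.34). The targets Gli1 (0.38) and Ptch1 (−0.41) were not called, and both were lower in ES–HLB than in ES–FLB (−1.14 and −1.10, adjusted p = 2.36e-08 and 3.51e-07, limma). The co-receptor Boc (1.99) was called higher, Ihh had the largest change upward (2.08) at 2.6 and 2.83 CPM, and Sufu changed least (0.06).

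Of 19 genes of the RA pathway, 18 were tested, 3 were called higher and 4 lower (median −0.15). The 3 make RA. Aldh1a2, the main enzyme of its synthesis in trunk mesoderm, had 19.5, 16.5 and 20.8 CPM in BA, against 186, 178 and 174 in ES–FLB and 30.9, 32.2 and 34.4 in ES–HLB (log2 fold change 1.99, standard error 0.069, adjusted p = 1.07e-18, limma), and Aldh1a3 (2.54) and Rdh10 (1.71) were higher too. The 4 lower genes were the RA-degrading Cyp26c1 (−1.88) and Cyp26a1 (−1.83), the binding protein Crabp2 (−1.55) and the receptor Rarb (−1.23), of which Cyp26a1 and Rarb are known RA targets. Cyp26c1 lost its call with a pseudocount of 2 (−0.99). Crabp1 changed least (−0.08). ES–FLB, the type that had received RA, was higher than ES–HLB in Aldh1a2 (−2.45 for ES–HLB minus ES–FLB, adjusted p = 1.19e-17, limma) and lower in Cyp26a1 (2.49, adjusted p = 4.53e-09, limma).

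The culture medium held hydrocortisone, and of 20 genes of the glucocorticoid response 17 were tested, 4 of them called higher and 2 lower (median 0.70). Cebpd (2.01), Klf9 (1.64), Mt1 (1.42) and Ddit4 (1.40) were higher. Fkbp5, the receptor's own feedback gene, was lower, with 134, 135 and 125 CPM in BA, 60.1, 57.9 and 54.3 CPM for ES–FLB and 74.9, 68.4 and 74.3 CPM for ES–HLB (log2 fold change −1.02, standard error 0.054, adjusted p = 5.69e-15, limma), as was Angptl4 (−1.49). Fkbp5 lay at the limit of the call, which was lost (−1.0) without BA replicate 2, ES–FLB replicate 3 or ES–HLB replicate 2. Tsc22d3 (−0.27), Per1 (0.89) and Sgk1 (0.80) were not called, and Nfkbia changed least (−0.11). These counts stand beside 10.4% of all genes called higher and 6.31% lower, and the effect of the hydrocortisone was not tested.

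Among genes of metabolism and stress, 9 of 23 genes of the amino acid response were called higher and none lower (median 0.49). Slc7a3 (3.15), Chac1 (2.80), Vldlr (2.52), Sesn2 (2.21) and Trib3 (2.1) led, while Asns (0.49) and the regulator Atf4 itself (−0.52) were not called and Aldh18a1 changed least (0.01). Of 27 tested genes of glycolysis and the hypoxia response, 7 were called higher and none lower (median 0.35), with Eno2 (2.34), Ndrg1 (2.02), Pfkp (1.97) and Vegfa (1.14) higher. The core enzyme Gapdh had 683, 681 and 725 CPM in the BA libraries, 314, 315 and 322 CPM in those of ES–FLB and 403, 388 and 396 CPM in those of ES–HLB, just short of a 2-fold difference (−0.97, adjusted p = 9.48e-19, limma), and Hk1 changed least (0.18). In cholesterol synthesis the share called higher, 3 of 24 tested genes, was near the 10.4% of all genes. Among the 3 were Sc4mol (1.28) and Lss (1.03, or 0.94 and not called without BA replicate 2), the median was 0.35, and Sqle changed least (0.02).

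Of 34 cell cycle genes tested, 3 were called lower and 1 higher (median −0.42), against 6.31% and 10.4% of all genes. The 3 were Cdkn1c (−1.58), Ccnd1 (−1.44) and Ccne1 (−1.18). Cdkn1a, which encodes the p21 inhibitor, was called higher, with 12.3 ± 2.31 CPM in BA, against 46.4, 48.8 and 55.4 in ES–FLB and 73.9, 72.1 and 62.1 in ES–HLB (log2 fold change 2.23, standard error 0.093, adjusted p = 6.03e-15, limma). Mki67 changed least, with 695 ± 30.5 CPM in BA and 736 ± 23.7 and 684 ± 28.4 CPM in ES–LB (95% interval −0.04 to 0.10).

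Imprinted genes, which are expressed from the allele of 1 parent, held some of the largest changes in both directions. Of 37 listed, 35 were tested, 17 were called higher and 8 lower (median 0.65), against 10.4% and 6.31% of all genes. Grb10, a growth inhibitor expressed from the maternal allele in most tissues, had 2044, 2198 and 2113 CPM in BA, 12.4, 7.33 and 11.3 CPM for ES–FLB and 4.7, 4.92 and 5.17 CPM for ES–HLB, 277-fold less in ES–LB by the means (log2 fold change −8.13, standard error 0.14, adjusted p = 3.05e-11, limma). In the 4 limb bud groups it had 1664 to 1853 CPM, close to BA. Igf2, the fetal growth factor, had 2807, 3208 and 3646 CPM in the BA libraries, 139, 118 and 124 CPM in those of ES–FLB and 113, 101 and 103 CPM in those of ES–HLB (log2 fold change −4.78, standard error 0.088, adjusted p = 2.59e-10, limma). H19, its neighbour with the opposite parental allele, was higher, with 5455 ± 586 CPM in BA and 11971 ± 250 and 12300 ± 662 CPM in ES–LB (1.16, adjusted p = 6.75e-06, limma).

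A similar split was seen at the Dlk1 to Dio3 region of chromosome 12. The paternally expressed Dlk1 had 516, 545 and 683 CPM in BA, against 23.7, 22.4 and 20.6 in ES–FLB and 25.2, 18.9 and 23.7 in ES–HLB (log2 fold change −4.66, standard error 0.104, adjusted p = 1.75e-12, limma), and Rtl1 fell from 5.25 ± 0.45 CPM to values at or under the floor in all 6 ES–LB libraries (−3.27). The maternally expressed RNAs Meg3 (2.88), Rian (2.34) and Mirg (1.96) were higher, and Meg3 had 142, 140 and 189 CPM in BA, 1357, 1094 and 1026 CPM for ES–FLB and 1054, 1357 and 1041 CPM for ES–HLB. Igf2r, which is expressed from the maternal allele, had a change of 2.03, and Airn, which overlaps it on the other strand, 1.74. The split did not follow the parental allele throughout, since the paternally expressed Peg10 (2.04), Peg3 (1.77), Zrsr1 (1.22), Slc38a4 (1.69) and Kcnq1ot1 (2.72) were higher and the maternally expressed Cdkn1c (−1.58) lower. Snurf changed least (0.03). BA came from ICR embryos and ES–LB from 1 cell line, so that strain and allele cannot be told apart from tissue. Among the imprinted genes only Grb10 is set beside the limb buds, which were of ICR embryos too. For the others no level in the buds is given here.

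Of 6 sex-linked genes, all tested, 3 were called higher and 1 lower in ES–LB. Xist had 0.129, 0.829 and 0.387 CPM in ES–FLB and 0.268, 1.04 and 0.63 in ES–HLB, at or little above the floor, against 233 to 909 CPM in BA (log2 fold change −8.97, standard error 0.498, adjusted p = 3.52e-06, limma). The Y-linked genes Ddx3y (1.64), Eif2s3y (1.53) and Uty (1.38) were called higher in ES–LB, in which Ddx3y had 65.3, 82.4 and 78 CPM in ES–FLB and 69.9, 75.4 and 81.5 in ES–HLB. Kdm5d, also on the Y chromosome, went against them, with 25.8, 13.5 and 41.3 CPM in the BA libraries, 14.9, 15.8 and 15.6 CPM in those of ES–FLB and 11.8, 15 and 11.8 CPM in those of ES–HLB, and was not called (−0.77, 95% interval −1.55 to 0.01). Without BA replicate 2, the library with the most Xist, Uty lost its call (0.92) and Kdm5d was called lower (−1.18). Tsix, the antisense partner of Xist, changed least (0.55).

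The 12 largest changes in each direction, among 574 higher and 315 lower genes at 16 CPM or more in the higher group and with no overlap between the libraries, fell mostly into the groups above. Upward they were Hoxa10, Apob, Agtr2, Afp, Hoxa11, Hoxa9, Thy1, Col14a1, Hoxc5, Hoxc6, a and Egr1. Apob, the apolipoprotein of liver and visceral endoderm, had 1.18, 0.984 and 0.624 CPM in BA, against 38.1, 25.7 and 30.6 in ES–FLB and 174, 250 and 200 in ES–HLB (log2 fold change 5.84, standard error 0.156, adjusted p = 1.79e-12, limma). Afp, the fetal counterpart of albumin, was listed at 0 in BA and had 48.9, 45.9 and 55.4 CPM in ES–FLB and 9.79, 16.4 and 14.9 in ES–HLB, at least 87.1-fold more than the BA floor. Agtr2, an angiotensin receptor of fetal mesenchyme, had 0.828, 0.861 and 0.998 CPM in BA, 75.5, 74.7 and 81.9 CPM for ES–FLB and 79.8, 75.8 and 78.6 CPM for ES–HLB (log2 fold change 5.81, standard error 0.085, adjusted p = 1.25e-26, limma), nearly the same in both types. Thy1, a surface protein of fibroblasts and neurons, had 1.54, 2.21 and 1.25 CPM in the BA libraries, 88.5, 81.8 and 94.5 CPM in those of ES–FLB and 76.1, 74 and 72.7 CPM in those of ES–HLB (log2 fold change 5.26, standard error 0.103, adjusted p = 3.21e-22, limma). The gene a, agouti, had a mean of 0.651 CPM in BA, against 26.9 in ES–FLB and 45.6 in ES–HLB (4.95), and in the annotation it overlaps Raly. Over the 4 limb bud groups, given with no test, the means were 0.237 to 0.967 CPM of Apob, 0 to 1.91 of Afp and 0.284 to 1.23 of Thy1. They were 0 to 15.6 CPM of Agtr2, 4.27 to 9.38 of agouti and 24.4 to 231 of Hoxa10. The E10.5 hindlimb means of Afp, Thy1, Agtr2 and Hoxa10 rest on 2 libraries.

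Downward they were Xist, Grb10, Hbb-y, Hba-x, Hbb-bh1, Gm1821, Hba-a1, Dlx3, Dlx6as1, Barx1, AI506816 and 3110099E03Rik. Gm1821, a transcribed ubiquitin pseudogene that RefSeq names Ubb-ps, had 103, 99.7 and 106 CPM in BA, 0.805, 1.39 and 0.776 CPM for ES–FLB and 1.1, 1.26 and 0.259 CPM for ES–HLB (log2 fold change −6.24, standard error 0.219, adjusted p = 1.08e-14, limma), and it had 109 and 114 CPM in the E10.5 buds. Reads of such a copy can be assigned to its parent gene or the reverse, so its value is uncertain. AI506816, a long noncoding RNA of chromosome 5, had 55.6, 62.1 and 43.4 CPM in the BA libraries, 0.66 ± 0.259 CPM in those of ES–FLB and 1.01 ± 0.225 CPM in those of ES–HLB, beside 50.1 and 48.7 CPM in the E10.5 buds. By contrast 3110099E03Rik, a long noncoding RNA of chromosome 2, had 25.5, 31.6 and 26.3 CPM in BA and was at or under the floor in all 6 ES–LB libraries, with group means of the limb buds as low (0.0599 to 0.374 CPM).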

How the data were processed

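RNA-seq libraries (TruSeq Stranded mRNA, single-end reads) of 3 ES–FLB, 3 ES–HLB and 3 BA samples were compared. The deposited values were CPM per gene, which the authors had made with HISAT2 2.0.4 on mm10, Cuffdiff and edgeR 3.16.2; the processing notes also name Cufflinks 2.1.1 and FastQC 0.11.5. The strand setting of the counting is not given in the sources used here. About 99% of the values were whole multiples of 1 read (tolerance 0.05 reads) and the rest were fractions of a read, so no count test was run.

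Samples were grouped by their labels. The CPM were scaled to each other by a trimmed mean of log ratios (30% of ratios and 5% of intensities trimmed), genes that reached 1 CPM in 3 or more of the 9 were kept, and log2(CPM + 0.5) was fitted with limma 3.58.1 in R 4.3.3 (3 groups, trend and robust variance) for the contrasts of ES–LB, ES–FLB and ES–HLB against BA and of ES–HLB against ES–FLB. P-values were adjusted over all genes tested by the method of Benjamini and Hochberg, and intervals are at 95%. The fit was tested on simulated data. Tables were made with Python 3.11.15 and pandas 2.3.3.

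The members, gene lists and alternatives were chosen with earlier results of these data known. Genes named by rule were the 3 markers, Hand2 and the members of each list with the largest and the smallest change. The 12 largest changes in each direction, at 16 CPM or more in the higher group without overlap between libraries, were also named by rule. The other named genes were chosen after their values were seen. Promoters came from RefSeq (GRCm38.p6) and overlaps of genes from GENCODE. Alternatives were another scaling, none, other filters and pseudocounts, all 27 libraries, a replicate block, a plain variance model and each library left out. Of the genes listed, Foxf1, Col26a1, Hbb-bs, Hbb-bt, Epb42, Pkm and Spink1 were not analysed here, and Msmo1 and Adgre1 were looked up under the older names Sc4mol and Emr1. Some genes of the lists are counted but not reported here by name.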

Additional observations from a re-analysis of the deposited data

Results flagged for a closer look

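The types of ES–LB differed from each other, by at least 2-fold and past the limma test of the difference itself, in 11 of the genes with the largest change against BA. The log2 difference of ES–HLB minus ES–FLB was 2.04 for Hoxa10, 2.47 for Hoxa11 and 1.41 for Hoxa9 (adjusted p = 5.37e-12, 1.4e-11 and 4.84e-07), and −2.92 for Hoxc5 and −2.09 for Hoxc6 (adjusted p = 0.00328 and 1.91e-09). It was 2.71 for Apob and −1.86 for Afp (adjusted p = 2.27e-07 and 8.46e-09). For the globins it was 3.05 for Hbb-y, 4.17 for Hba-x, 4.71 for Hbb-bh1 and 3.32 for Hba-a1 (adjusted p = 4.44e-05, 0.000425, 3.76e-05 and 1.37e-09). A change averaged over both types is therefore the middle of unequal values for these genes.

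Among the genes of the lists, Msc and Fmod were called in opposite directions against BA in the types of ES–LB. Msc had log2 fold changes against BA of 1.29 in ES–FLB and −1.31 in ES–HLB, a difference of −2.60 (adjusted p = 5.33e-11, limma). Fmod had −1.98 in ES–FLB and 2.62 in ES–HLB, a difference of 4.60 (adjusted p = 1.61e-15, limma). The log2 fold changes over the mean of both types, −0.01 and 0.32, show neither.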

How the results depend on the processing

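The 2282 genes called between ES–LB and BA were called in the same direction in 2279 cases under median-of-ratios scaling, 2245 on the CPM as deposited, 2281 without a filter and 2281 with a pseudocount of 0.1, 2278 in a fit of all 27 libraries and 2280 with the plain variance model, and none was called in the opposite direction under these. A filter at 5 CPM left 1509 genes called, 545 of them lower, because 773 called genes were no longer tested. It left 604 lower in ES–FLB, and 1436 called and 504 lower in ES–HLB. A pseudocount of 2, which shrinks the changes of low genes, left 1490 called and 914 higher in ES–LB, and 1457 called, 921 higher and 536 lower in ES–HLB. With 1 library left out, 2121 to 2262 genes were called in ES–LB (1367 to 1498 higher and 691 to 864 lower), 2250 to 2382 in ES–FLB (1397 to 1510 and 789 to 964) and 2069 to 2188 in ES–HLB (1326 to 1454 and 659 to 830).

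Same-numbered libraries of the 9 pairs had correlations of their deviations from −0.053 to 0.072, none over 0.1. Those of ES–FLB with ES–HLB were 0.042, 0.052 and 0.072, against −0.044 to −0.006 for unlike numbers. Whether the numbers pair the cultures was not tested. With the replicate number as a block (replicate block), 1422 genes were called higher and 860 lower. No list median changed sign between scalings, and counts of a list changed by at most 1. In counts of lists without each BA library in turn, chosen after seeing the data, the genes called lower became 2 of 3 tested in the macrophage list and 4 of 12 in the pharyngeal mesoderm list, whichever library was left out, because genes found in BA alone then failed the filter. They became 3 of 9 in the pharyngeal endoderm list without replicate 2 or 3, 1 of 23 in the BMP list without replicate 2, 2 in the FGF list without replicate 3, 1 in the glucocorticoid list without replicate 2 and 2 of 6 in the sex-linked list without replicate 2. The FGF and sex-linked lists then had 2 genes called higher instead of 3, and the cholesterol list had 2 without replicate 2.

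The adjusted p of Hand2 lay between 0.00704 and 0.208 over 18 alternatives, 6 of them below 0.05, with a log2 fold change of 0.15 to 0.41. These were the CPM as deposited, no filter, the plain variance model, and the fits without BA replicate 1, BA replicate 3 or ES–FLB replicate 3.

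Of 263 named genes, 9 changed sign, all of them with small changes in the first place. Msc was 0.02 on the CPM as deposited, 0.09 with a pseudocount of 2 and 0.01 to 0.15 with 1 library left out. Snap25 was 0.35 with a pseudocount of 0.1, 0.60 without BA replicate 1 and 0.07 without BA replicate 3. Without BA replicate 1, Crabp1 was 0.03, Timp1 −0.12 and Wnt2b −0.09. Without BA replicate 2, Prrx1 was 0.01, Aldh18a1 −0.02, Sqle −0.01 and Spry1 0.02, and without BA replicate 3 Spry1 was 0.01. Wnt2b was −0.01 without ES–HLB replicate 2, and Msc was 0.01 without ES–FLB replicate 1, 0.02 without ES–FLB replicate 2 and 0.03 without ES–HLB replicate 1. With a pseudocount of 2, calls were lost for Cdh19 (−0.83, from −1.76), Cyp26c1 (−0.99, from −1.88), Nfe2 (−0.80, from −1.48), Nog (0.92, from 1.36) and Spry4 (0.94), and on the CPM as deposited for Fkbp5 (−0.99). With a pseudocount of 0.1, Lmx1b (−1.17) gained a call. With 1 library left out, the ranges of these genes were −0.02 to 0.04 (Aldh18a1), −0.15 to 0.03 (Crabp1), −0.14 to 0.01 (Prrx1), −1.05 to 0.60 (Snap25), −0.01 to 0.05 (Sqle), −0.12 to 0.16 (Timp1) and −0.09 to 0.25 (Wnt2b). For the other changes of single genes the cause was not tested.

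Genes under about 3 reads per library cannot be compared at this depth. Each group had 3 libraries, and nothing separates tissue from strain, culture, sorting or sex.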

Other observations

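The genes of this part belong to no list and were chosen after their values were seen. How many other genes of the same tissues did not change was not counted. Ttr, the transthyretin carrier of thyroid hormone, was listed at 0 in BA and had 10.8, 8.02 and 10.2 CPM in ES–FLB and 18, 25.2 and 22.2 CPM in ES–HLB, at least 43-fold more than the BA floor. Apoa1 had 0.355, 0.369 and 0.249 CPM in BA, against 6.57, 6.08 and 6.45 in ES–FLB and 21.3, 24.6 and 29.5 in ES–HLB (log2 fold change 4.0, standard error 0.156, adjusted p = 1.14e-17, limma). Rbp4 (3.19) and Cubn (2.86) were higher too, and Hnf4a and Spink3 were at 0 in BA with means of 3.63 and 4.75 CPM in ES–FLB and 4.05 and 22.8 CPM in ES–HLB. Alb went against Ttr and Apoa1 between the types, with 5.54, 6.08 and 7.35 CPM in ES–FLB and 0.134, 0.745 and 0 CPM in ES–HLB (−3.21 for ES–HLB minus ES–FLB, adjusted p = 1.05e-08, limma).

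Gata4 and Gata6, zinc finger factors of endoderm, heart and lateral plate, were higher in ES–LB. Gata6 had 1.18, 1.72 and 4.12 CPM in BA, 89.9, 80.7 and 73.4 CPM for ES–FLB and 74.9, 60.5 and 73.7 CPM for ES–HLB (log2 fold change 4.87, standard error 0.314, adjusted p = 8.37e-06, limma), and Gata4 had 0, 0.123 and 1.75 CPM in the BA libraries, 34.2 ± 4.8 CPM in those of ES–FLB and 11.7 ± 1.47 CPM in those of ES–HLB (log2 fold change 4.52, standard error 0.477, adjusted p = 0.000121, limma). In both genes BA replicate 3 was the highest BA library. The transcription factor genes Nfix (4.63), Nfia (2.69), Runx2 (2.63) and Zeb2 (1.56) and the receptor gene Pdgfra (1.07) were higher, and Lin28b, an RNA-binding protein of early stages, was lower (−1.45).

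Eda2r and Ptprv, which are known p53 targets like Cdkn1a, had 2.52 ± 0.275 and 1.95 ± 0.636 CPM in BA, against 53.6 ± 2.71 and 41.6 ± 3.5 in ES–FLB and 53.1 ± 4.31 and 41.6 ± 4.34 in ES–HLB, a like rise in both types (4.16 and 4.13). The nuclear RNAs Malat1 (90.1, 88.8 and 92.2 CPM in BA, 745, 552 and 569 CPM for ES–FLB and 688, 950 and 563 CPM for ES–HLB) and Neat1 (3.38) were higher. Ctgf and Cyr61, which both answer to YAP and to serum response factor, moved apart, with log2 fold changes of −2.26 and 2.32 (adjusted p = 1.96e-13 and 8.08e-05, limma). Hprt, the purine salvage enzyme on the X chromosome, had 37, 36 and 30.7 CPM in the BA libraries, 2.06, 1.11 and 1.68 CPM in those of ES–FLB and 1.74, 0.745 and 1.76 CPM in those of ES–HLB (log2 fold change −4.16, standard error 0.194, adjusted p = 1.03e-15, limma). Aplnr (−4.90), Gja5 (−4.40) and Cd93 (−3.70), which blood vessels express, were lower.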
